A study of Mus musculus with 9 samples.

Results

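Toll-like receptors were described in mouse bone marrow mononuclear cells transformed by the leukemia fusion MLL-AF9 and in control cells. The members are the 10 receptor genes Tlr1 to Tlr9 and Tlr13, chosen by symbol and not by their values, and all 10 were found among the 22942 rows of the RNA table. The donor strain was B6.SJL (CD45.1), a mouse strain with a distinct allele of the leukocyte antigen CD45. MLL-AF9 cells had received the retrovirus MSCVneo-MLL-AF9 together with the empty virus MSCVpuro, and control cells the empty viruses MSCVneo and MSCVpuro, so both groups carried both virus backbones. MSCV vectors drive their insert from a viral promoter. The age of the animals, the time after transduction and whether libraries came from separate animals are not stated in the labels. Each group has 3 polyA RNA libraries, whereas the labels' protocols speak of duplicates per genotype.

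For each gene the authors' deposited table gives 1 pooled value per group, taken as FPKM, a level scaled to transcript length and sequencing depth, with the authors' p-value and q-value. Values of single libraries are not in it, so no spread stands beside any level below, and which libraries entered the pooled values is not known. A gene is called here where its q-value is under 0.05 and the mean of the groups is at least 1 FPKM, and "rose" and "fell" are kept for called genes. Log2 changes are differences of log2(FPKM + 1), MLL-AF9 minus control, which shrinks the change of low genes, and folds are ratios of the FPKM values. Where values are set against each other without a group, that of MLL-AF9 cells comes first. The median of the 11538 genes that reach this mean lay at 0.29 on the log2 scale, so changes are to be read against that shift. Depth per library is not given, but low values move in steps of a read. Of 1327 genes above 0 and under 0.1 FPKM in both groups, 516 (38.9%) had a ratio between groups within 0.01 log2 units of that of whole reads from 1 to 3, with 1 read worth 1.25 times as much FPKM in MLL-AF9 as in control cells. That worth was itself set from the commonest ratio of these genes, so the share is no separate evidence for it. The share to be found without such steps was not computed. As a check of the labels, the known fusion target Hoxa9 stood at 65.9 against 0.876 FPKM and Meis1 at 42.6 against 1.68 FPKM. The leukocyte antigen Ptprc was present at 142 FPKM in MLL-AF9 cells, compared with 257 FPKM in control cells. The cells are labelled mononuclear, and the neutrophil granule gene Ltf reached 6006 FPKM in control cells, against 127 FPKM in MLL-AF9 cells. The stage of the cells that expressed Ltf was not tested.

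Toll-like receptors are membrane proteins of innate immune cells that recognise molecules of microbes through leucine-rich repeats and signal through a cytoplasmic TIR domain. Tlr1, Tlr2, Tlr4, Tlr5 and Tlr6 act mainly at the cell surface on lipids and proteins of bacteria, while Tlr3, Tlr7, Tlr8, Tlr9 and Tlr13 act in endosomes on nucleic acids. Nearly all signal through the adaptor Myd88 to NF-kB and interferon regulatory factors, and Tlr3 signals through Ticam1 (TRIF). In bone marrow they are known mainly from neutrophils, monocytes, dendritic cells and B cells, and some are also found on progenitors.

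The stretches before the transcription start are shown for Tlr8, the called member, for Tlr5, next to it in change, for Tlr9, the member with the highest log2 change, and for Tlr13, the member with the highest level. They come from RefSeq, build GRCm38.p6, whereas the RNA values were made with mm9, and each runs 5′ to 3′ and ends before the first base of the annotated gene. Capitals mark the motifs described after them.
Tlr8 (chrX:167264330-167264579, minus strand): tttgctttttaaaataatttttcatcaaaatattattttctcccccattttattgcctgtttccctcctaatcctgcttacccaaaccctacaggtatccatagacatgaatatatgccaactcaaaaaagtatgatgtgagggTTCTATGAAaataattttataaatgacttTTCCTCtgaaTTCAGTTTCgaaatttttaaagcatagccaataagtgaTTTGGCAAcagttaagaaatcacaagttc
Tlr5 (chr1:182954538-182954751, plus strand): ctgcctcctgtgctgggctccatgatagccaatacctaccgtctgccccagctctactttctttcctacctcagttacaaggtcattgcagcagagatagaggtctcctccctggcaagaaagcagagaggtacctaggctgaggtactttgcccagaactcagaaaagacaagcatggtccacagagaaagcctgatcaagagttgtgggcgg
Tlr9 (chr9:106222348-106222597, plus strand): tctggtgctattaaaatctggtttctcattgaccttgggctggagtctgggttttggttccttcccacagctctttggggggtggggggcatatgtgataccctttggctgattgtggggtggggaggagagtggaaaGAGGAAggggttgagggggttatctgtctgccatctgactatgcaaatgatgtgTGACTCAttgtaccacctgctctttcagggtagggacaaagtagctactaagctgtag
Tlr13 (chrX:106143025-106143274, plus strand): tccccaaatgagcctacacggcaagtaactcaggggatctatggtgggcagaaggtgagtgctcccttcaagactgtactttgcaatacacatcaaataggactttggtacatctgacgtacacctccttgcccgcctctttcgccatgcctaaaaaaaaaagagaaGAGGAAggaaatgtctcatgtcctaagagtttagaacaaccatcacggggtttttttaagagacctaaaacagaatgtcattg

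Motifs were searched on both strands in the 250 bases before each start, in 10 windows of the 8 members with an entry, which do not include Tlr4 and Tlr7. They were the PU.1 core GAGGAA, the AP-1 site TGANTCA, the STAT site TTCNNNGAA, a C/EBP site TTNNGCAA, the core of the interferon-stimulated response element GAAANNGAA, and the kappaB consensus. Tlr8 held a STAT match that began 106 bases before the start, a PU.1 core at 77, a response element core at 67 and a C/EBP match at 29 bases, Tlr9 a PU.1 core at 112 and an AP-1 match at 58 bases, and Tlr13 a PU.1 core at 83 bases. The 4 members with a PU.1 core were Tlr1, Tlr8, Tlr9 and Tlr13, beside 23.3% of all 32851 windows. A STAT match was found in Tlr1 and Tlr8, beside 7.02% of windows, and a C/EBP match in Tlr3, Tlr6 and Tlr8, beside 9.56%. The kappaB consensus was found in Tlr2 and Tlr3, beside 7.25% of windows, the response element core in Tlr6 and Tlr8, beside 7.13%, and the AP-1 site in Tlr9, beside 6.75%. The response element core was shortened by its last letter, an A, after a first search, and the Tlr8 match is found only with the shorter form. In Tlr2 and Tlr6 neighbouring matches of the same motif overlapped, and the printed Tlr5 stretch held none of these letters. The annotated gene reaches into the windows of Tlr1, Tlr2, Tlr3 and Tlr6. All matches listed for these members lay inside the gene, unlike those in the printed stretches. The Tlr8 window was poor in G and C, at 31.2% against a median of 52.4% over all windows. The Tlr9 window held no CG pair, the Tlr8 window and a Tlr1 window 1 each, and the median window 6. Of the 10 member windows 6 lay below this median, and the Tlr2 window held 11. Tlr1 and Tlr6 had more than 1 window each, so counts of members and shares of windows are unlike measures. A match describes letters and is not a measured binding site.

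Of the 10 receptors, Tlr8 fell in MLL-AF9 cells and no member rose, whereas 10.3% of all 11538 genes were called, 5.20% as lower and 5.13% as higher. Of the 9 members that reach the minimum, 1 was therefore called, a share close to that of all genes. At an unadjusted p under 0.05 in the authors' deposited table, 3 members were lower (Tlr5, Tlr7 and Tlr8) and 0 higher, beside 8.32% and 11.5% of all genes. By value alone 7 of these 9 members, and 8 of all 10, stood lower in MLL-AF9 cells, and of all 11538 genes 31.3% did. Tlr9 and Tlr1 were the others, and Tlr1 also stood lower once changes were centred on the median gene. The median log2 change of the 9 members was -0.74, against 0.29 for all genes. The summed level of the 10 members was 87.8 FPKM in MLL-AF9 cells, compared with 132 FPKM in control cells. In these bulk samples, fewer cells of a type and less RNA per cell cannot be told apart.

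**Figure D1:**
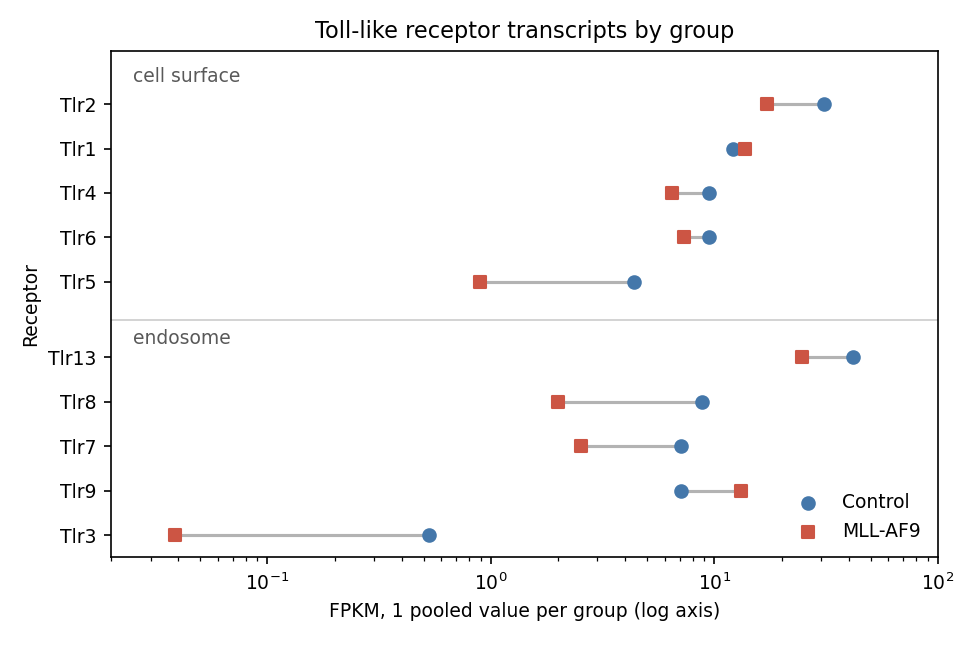
Levels of the 10 receptors in FPKM on a log axis, with 1 pooled value per group and no error, as circles for control and squares for MLL-AF9 cells, split by the compartment in which the receptor acts. Tlr13 and Tlr2 are the highest in both groups, and Tlr9 and Tlr1 are the members whose square lies to the right of the circle. Tlr1 changes side when values are rescaled to the median gene or by quantiles.

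The surface receptors are described first. Tlr2, which senses bacterial lipoproteins together with Tlr1 or Tlr6, was listed at 17.2 FPKM in MLL-AF9 cells, compared with 30.9 FPKM in control cells, without being called, with a q-value of 0.371 in the authors' deposited table. Tlr1, its partner for triacylated lipopeptides, was listed at 13.7 against 12.1 FPKM, with a q-value of 0.899 in the authors' deposited table. Tlr6, its partner for diacylated lipopeptides, was listed at 7.31 against 9.49 FPKM, with a q-value of 0.792 in the authors' deposited table. Tlr2 was thus 1.25 times the level of Tlr1 in MLL-AF9 and 2.55 times in control cells, and 2.35 and 3.26 times that of Tlr6. Tlr1 and Tlr6 are neighbours on chromosome 5 and close paralogues, and whether reads were shared between them was not tested. Tlr6 also overlaps Fam114a1 in the GRCm38 annotation, which was listed at 2.27 against 4.98 FPKM, and the library kit does not keep strand.

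Tlr4, the receptor of lipopolysaccharide, was listed at 6.48 FPKM in MLL-AF9 cells, compared with 9.49 FPKM in control cells, a log2 change of -0.49 that was not called, with a q-value of 0.646 in the authors' deposited table. Tlr5, the receptor of flagellin, was listed at 0.891 against 4.39 FPKM, 4.92-fold lower in MLL-AF9 cells, with p = 0.00576 and q = 0.0529 in the authors' deposited table. Its q-value lay just above the threshold, so it was not called. Of the tested genes, 5.09% had a lower log2 change than the -1.51 of Tlr5.

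Among the endosomal receptors, Tlr8 had the lowest log2 change of the family on the scale used, while Tlr3 and Tlr5 had larger FPKM ratios at lower levels. Tlr8, a sensor of RNA fragments, was at 1.99 FPKM in MLL-AF9 cells, compared with 8.84 FPKM in control cells, 4.44-fold lower, with p = 0.00295 and q = 0.0316 in the authors' deposited table. Its log2 change was -1.72, or -2.01 against the median gene, and 453 of the 11538 genes (3.93%) had a lower one. Tlr7, the receptor of single-stranded RNA, lies next to Tlr8 on the X chromosome. It was listed at 2.52 against 7.08 FPKM, 2.81-fold lower in MLL-AF9 cells, with p = 0.0273 and q = 0.157 in the authors' deposited table, and was not called.

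Tlr9, which senses unmethylated CpG DNA, was listed at 13.1 FPKM in MLL-AF9 cells, compared with 7.06 FPKM in control cells, 1.86-fold higher, without being called, with a q-value of 0.377 in the authors' deposited table. Its log2 change of 0.81 was the highest of the family and the only one above the median gene. In control cells the levels of Tlr9, Tlr7 and Tlr8 lay close together, with Tlr9 at 0.997 times Tlr7 and 0.798 times Tlr8. In MLL-AF9 cells Tlr9 was at 5.20 times Tlr7 and 6.59 times Tlr8. The difference between these changes could not be tested from pooled values.

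Tlr13, a mouse receptor of bacterial ribosomal RNA, was listed at 24.6 against 41.8 FPKM, a log2 change of -0.74 that was not called, with a q-value of 0.422 in the authors' deposited table. Tlr3, the receptor of double-stranded RNA, was the lowest member in both groups, at 0.0385 FPKM in MLL-AF9 cells, compared with 0.526 FPKM in control cells. It had p = 0.000995 and q = 0.0138 in the authors' deposited table, but its mean lay under 1 FPKM, so it does not count as called. Its ratio was 13.6-fold, which with the worth of a read given above is 17.0 control reads for each read in MLL-AF9 cells. With no minimum level it would be called, beside 3.26% of all rows called as lower. The other mouse paralogues were low as well, with Tlr11 listed at 0.0645 against 0.310 FPKM and Tlr12 at 0.535 against 1.24 FPKM, both under a mean of 1 FPKM.

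**Figure D2:**
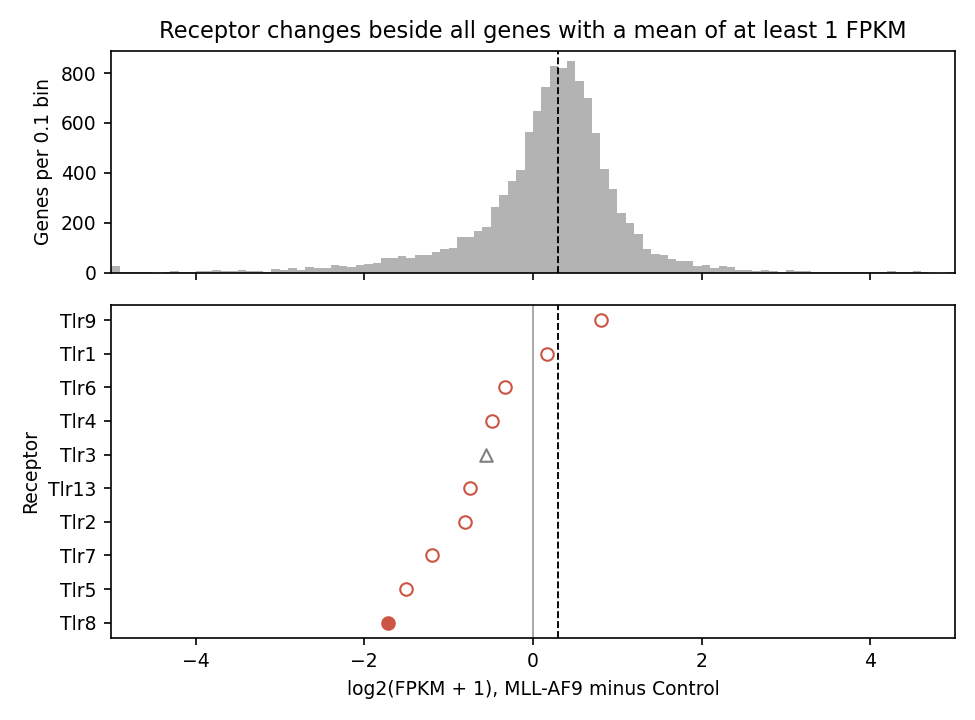
Top, number of genes per 0.1 bin of the log2(FPKM + 1) difference, MLL-AF9 minus control, for the 11538 tested genes, with values beyond the axis put in the end bins. Bottom, the same difference for the 10 receptors, with a filled circle for the called member, open circles for members not called and a triangle for Tlr3, under that mean. The dashed line is the median gene at 0.29, and Tlr9 at 0.81 lies above it while Tlr8 at -1.72 lies lowest.

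The order of levels was alike at its top and bottom in both groups. Tlr13, Tlr2 and Tlr1 were the highest, in this order, and Tlr5 and Tlr3 the lowest. In control cells Tlr4, Tlr6, Tlr8, Tlr7 and Tlr9 followed between them, and in MLL-AF9 cells Tlr9, Tlr6, Tlr4, Tlr7 and Tlr8. Tlr9 thus stood at rank 8 in control and rank 4 in MLL-AF9 cells, and Tlr8 at rank 6 and rank 8. With no spread over libraries, which neighbours in these orders differ cannot be said. Tlr13 made up 31.7% of the summed FPKM of the family in control and 28.0% in MLL-AF9 cells, Tlr2 23.5% and 19.6%, Tlr1 9.21% and 15.6%, and Tlr9 5.36% and 14.9%. The 5 surface receptors together held 50.4% in control and 51.9% in MLL-AF9 cells.

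Around the receptors, 13 of 78 tested genes of 8 pathway lists were called (16.7%, beside 10.3% of all genes), 3 as higher and 10 as lower, and 8 of these 13 were response genes. Of 6 co-receptors and accessory proteins, 1 fell and 0 rose, with a median log2 change of 0.58. The gene that fell was Cd36, a scavenger receptor that assists Tlr2, at 0.430 against 5.25 FPKM, with a q-value of 3.11e-09 in the authors' deposited table. Ly86 and Cd180, which form a complex that modulates Tlr4, were listed at 214 against 101 FPKM and 51.0 against 24.4 FPKM without being called, and the lipopolysaccharide binding protein Lbp at 59.2 against 49.0 FPKM. Cd14 and Ly96, singled out after their values were seen because they load lipopolysaccharide onto Tlr4, were listed at 25.3 against 13.2 FPKM and 3.99 against 11.6 FPKM without being called. Cd14 was thus 3.91 times the level of Tlr4 in MLL-AF9 and 1.39 times in control cells, and Ly96 0.616 and 1.22 times.

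Of 8 genes for folding and transport of the receptors, 0 were called, and 1 had an unadjusted p under 0.05 in the authors' deposited table. Their median log2 change was 0.42, beside 0.29 for all tested genes. Under quantile normalization it was 0.30, beside 0.086 for all tested genes. Unc93b1, which carries the nucleic acid receptors to endosomes, was listed at 235 against 187 FPKM, the chaperone Hsp90b1 at 364 against 205 FPKM and its cochaperone Cnpy3 at 71.3 against 48.9 FPKM. Of 5 endosomal proteases, which cut nucleic acid receptors into their active form, 1 fell and 0 rose. It was Ctsk, at 0.721 against 4.61 FPKM, with a q-value of 0.0452 in the authors' deposited table, whereas Ctss was listed at 220 against 266 FPKM, Ctsb at 139 against 125 FPKM and Lgmn at 30.4 against 20.4 FPKM.

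Of 6 adaptors, 4 were tested and 0 were called, also at an unadjusted p under 0.05. Tirap was not matched and Sarm1 was under the minimum. Myd88 was listed at 46.6 against 74.8 FPKM, Pik3ap1, a link to PI3 kinase, at 41.6 against 25.6 FPKM, and Ticam1 at 10.6 against 8.16 FPKM. Of 17 tested kinases, ligases and their partners, 1 fell and 0 rose, with a median of 0.05. This gene was the ubiquitin ligase Peli2, which acts on the kinases of the IRAK family, at 1.45 against 6.17 FPKM, with a q-value of 0.0232 in the authors' deposited table. Ube2v1, Btk and Tab2, the most abundant others, were listed at 70.5 against 67.8 FPKM, 66.8 against 61.5 FPKM and 65.9 against 48.2 FPKM.

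Of 10 tested NF-kB and interferon regulatory factor genes, 1 fell and 0 rose, with a median of 0.28. The factor that fell was Irf7, which acts downstream of Tlr7 and Tlr9, at 27.2 against 51.4 FPKM, with a q-value of 0.0237 in the authors' deposited table. Irf8 was listed at 198 against 90.7 FPKM, Nfkb1 at 125 against 54.3 FPKM and Irf5 at 79.2 against 72.1 FPKM, none of them called. Of 15 tested negative regulators, 1 fell and 0 rose, with a median of -0.09. It was Cd300lf, an inhibitory receptor of myeloid cells, at 40.3 against 133 FPKM, with a q-value of 3.49e-07 in the authors' deposited table. The adaptor Dok3 was listed at 138 against 242 FPKM, the kinase Lyn at 101 against 133 FPKM and the phosphatase Dusp1 at 149 against 75.6 FPKM.

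Response genes, which Toll-like receptor signals can induce, changed in both directions: of 13 tested, 3 rose and 5 fell, with a median of -0.84. Nos2, the inducible nitric oxide synthase, rose from 0.0135 to 3.16 FPKM, with a q-value of 7.80e-10 in the authors' deposited table, as did Ccl3, from 25.0 to 225 FPKM, and Ccl4, from 8.51 to 81.2 FPKM, both chemokines. The chemokine Ccl5 fell from 68.6 to 5.06 FPKM and the cytokine Il1b from 160 to 4.36 FPKM. The costimulatory genes Cd40 and Cd86 fell from 10.2 to 2.26 FPKM and from 5.40 to 0.776 FPKM, and Acod1, the itaconate-forming enzyme listed under its older symbol Irg1, fell from 4.47 to 0.160 FPKM. Tnf was listed at 20.9 against 17.7 FPKM, Cxcl2 at 7.05 against 10.5 FPKM and Cd80 at 2.55 against 3.53 FPKM without being called. Of the remaining members, 6 were under a mean of 1 FPKM.

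**Figure D3:**
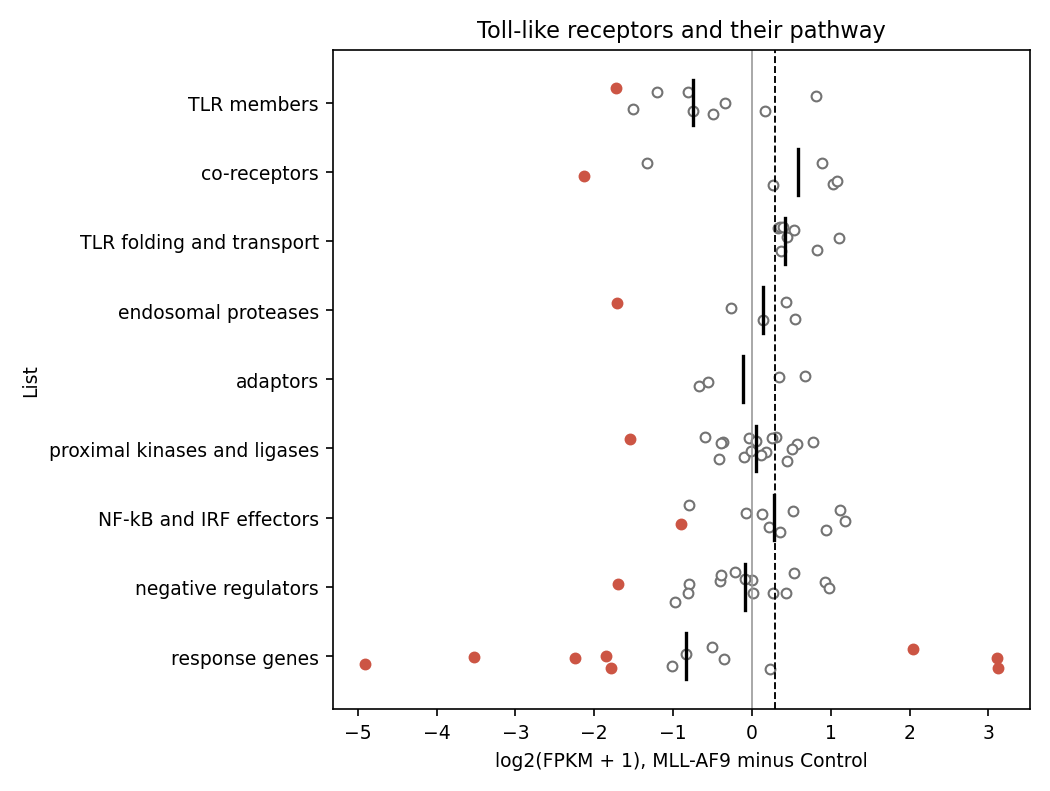
Log2(FPKM + 1) differences, MLL-AF9 minus control, of the tested genes in the receptor family (top) and the 8 pathway lists, with filled points for called genes, open points for others, a bar at each list's median and a dashed line at the median gene, 0.29. Response genes hold 8 of the 13 called pathway genes, and the receptors have a median of -0.74.

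Markers of other marrow cells moved in the same comparison, and their part in the receptor values was not tested. Of 9 tested neutrophil markers, 9 fell, with a summed level of 21876 FPKM in MLL-AF9 cells, compared with 194932 FPKM in control cells, or 5664 and 64082 FPKM without S100a8. Of 9 B lymphoid markers 8 fell, with sums of 37.6 and 664 FPKM. Of 12 monocyte and macrophage markers 5 (Vcam1, C1qa, C1qb, C1qc and Fcgr1) fell and 0 rose, with sums of 1285 and 12680 FPKM. Most of both sums was the lysozyme gene Lyz2, listed at 890 against 12233 FPKM without being called, and the other 11 summed to 395 and 447 FPKM. Among these, Csf1r was listed at 82.4 against 81.3 FPKM, while C1qb, a complement gene of tissue macrophages, fell from 20.1 to 1.52 FPKM. Of the 12 markers, 8 stood lower by value and 4 (Csf1r, Cd68, Emr1 and Cx3cr1) higher. Of 7 tested conventional dendritic markers, the class II genes H2-Aa, H2-Ab1 and H2-Eb1 and their activator Ciita fell and Itgax rose, with sums of 269 and 902 FPKM. Without the 3 H2 genes, which B cells also express, the sums were 34.5 and 20.4 FPKM, the opposite direction. That higher sum rests on Itgax, which rose from 7.76 to 28.0 FPKM. Of the 7 tested markers, 5 stood lower by value and 2 higher, with a median log2 change of -1.21.

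Plasmacytoid dendritic cells are known for Tlr7 and Tlr9, and of 8 tested markers of theirs 2 fell and 1 rose, with sums of 174 and 292 FPKM. The lower sum rests on Ly6d, a gene that early B lymphoid cells also express, which fell from 132 to 1.70 FPKM. Without it the sums were 173 and 160 FPKM, the opposite direction. That higher sum rests in turn on Tcf4, which rose from 6.30 to 68.9 FPKM. By value 5 of the 8 tested markers stood lower and 3 higher, with a median log2 change of -0.999. The lower ones were Ly6d, Spib, Cox6a2, Klk1 and Lag3. Siglech was listed at 11.6 against 10.9 FPKM, and Spib fell from 52.6 to 3.43 FPKM. Of 9 T and NK markers 9 fell, with sums of 25.3 and 179 FPKM, or 4.87 and 70.8 FPKM without Nkg7, of 8 erythroid markers 6 fell, with sums of 17.4 and 234 FPKM, and of 5 tested eosinophil markers 4 fell, with sums of 61.1 and 303 FPKM. Of 6 granulocyte-monocyte progenitor markers 1, Cd34, rose and 0 fell, with sums of 4185 and 2788 FPKM. By value 4 stood higher and 2 lower, the lower ones being Mpo at 627 against 927 FPKM and Kit at 12.9 against 14.3 FPKM. The higher sum comes mainly from the granule genes Elane, Ctsg and Prtn3, none of them called. No matched marker of these lists was listed at 0 in either group.

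**Figure D4:**
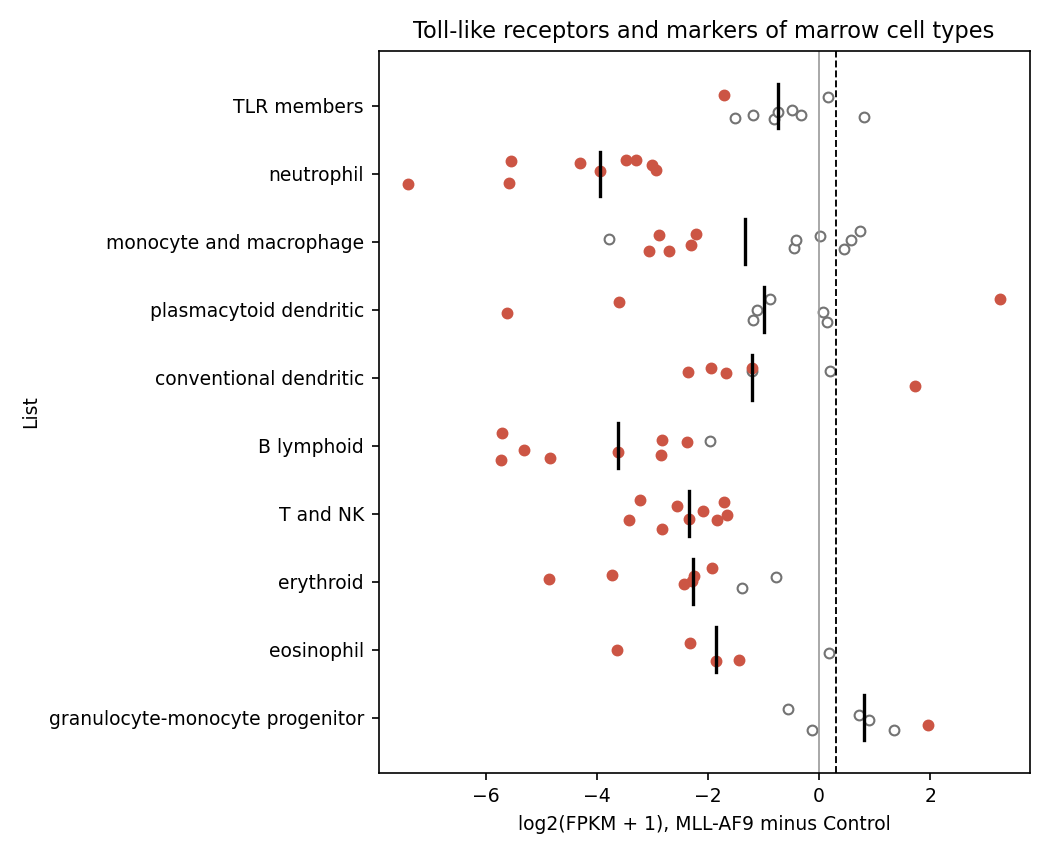
Log2(FPKM + 1) differences, MLL-AF9 minus control, of the tested receptors (top row) and of tested markers of 9 marrow cell types, with filled points for called genes, open points for others, bars at list medians and a dashed line at the median gene, 0.29. Medians ran from -3.95 for neutrophil to 0.81 for granulocyte-monocyte progenitor markers, and the receptor median was -0.74.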

How the data were processed

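The labels list 3 MLL-AF9 and 3 control polyA RNA samples, and the comparison rests on 1 pooled value per group, from an unknown number of them. Samples were grouped by their titles. Per the labels' protocols, libraries were made with a TruSeq RNA kit, a kit that does not keep strand, and read as single reads of 51 bp. The submitters' processing notes name build mm9 and, among other tools, TopHat 1.4.1 with Cufflinks 1.3.0, without roles or settings. The authors deposited 1 FPKM value per gene and group; the header names no unit, so FPKM rests on the named tools and the look of the values. The p-value and q-value per row are the authors' own, from a test not stated per the file headers.

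No test was computed anew, as planned for a table without values per library, and a call required both the authors' q-value to be under 0.05 and the groups' mean to reach 1 FPKM. S100a9, listed at 0 in control cells and taken as a failed estimate, was not tested. The members, the 22 gene lists, of whose 210 genes 197 were matched, and the settings were chosen with earlier results of these data known. Named genes are all members and, of the pathway, sensor and interleukin receptor lists, all called genes and up to 3 others with the highest mean. The rule also covered the marker lists, but there called genes are given mostly as counts, and the markers named, like those left out of sums, were chosen after their values were seen, as were genes singled out in the text. Likeness of pattern to other genes was not computed, since the table holds 2 values per gene. Alternatives were pseudocounts of 0.1 and 0.5, other minimum levels and thresholds, median centring and quantile normalization. The counting steps were tested on simulated data. The 5hmC regions and the input library were not used here, because gene positions of build mm9 were not at hand. Python 3.11.15 was used with pandas 2.3.3, numpy 2.4.6 and matplotlib 3.10.9.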

Additional observations from a re-analysis of the deposited data

How the results depend on the processing

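The count of members that fell was 1, Tlr8, and was 2 with no minimum level, when Tlr3 is added, 0 at a q-value under 0.01, and 3 at an unadjusted p-value under 0.05. No member was called higher under any of these settings. The median log2 change of the tested members, -0.74, was -1.04 after median centring, -0.92 under quantile normalization and -0.49 with a mean of at least 5 FPKM. Under quantile normalization the median of all tested genes was 0.086. Of 40 log2 changes of single members under other pseudocounts and scalings, 38 kept their direction, and that of Tlr1, 0.17, turned to -0.13 after median centring and -0.11 under quantile normalization. For the pathway genes, 8 rather than 3 were higher at an unadjusted p-value under 0.05, and 5 and 6 rather than 10 were lower with a mean of at least 5 FPKM and at a q-value under 0.01. Of 80 counts of single pathway lists, 69 stayed within 1.5 times. Most of these were counts of 0 that remained 0, which a stricter setting could not change. Leaving out a library was not possible from pooled values. No paired analysis was possible because the table holds no values of single libraries. Depth and spread per library are unknown, which limits what can be said of low members such as Tlr3 and Tlr5.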

Other observations

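Innate sensors outside the Toll-like receptors were divided in the same comparison. Of 17 tested genes, 2 rose and 5 fell, beside 10.3% of all genes called, with a median log2 change of -0.88. Tmem173, which encodes the cytosolic DNA signalling protein STING, rose from 28.3 to 86.3 FPKM, with a q-value of 0.0222 in the authors' deposited table, and Nlrc4, a component of inflammasomes that also respond to flagellin, rose from 3.14 to 10.5 FPKM, with a q-value of 0.0464 in the authors' deposited table. For flagellin, the surface receptor Tlr5 and Nlrc4 thus stood on opposite sides, at 0.891 against 4.39 FPKM and 10.5 against 3.14 FPKM in MLL-AF9 against control cells, with Tlr5 not called. The RNA sensor Ddx58 (RIG-I) fell from 17.1 to 4.48 FPKM, Nod1, a sensor of bacterial cell wall fragments, from 17.1 to 7.05 FPKM, and the lectin Clec4d from 104 to 5.64 FPKM. The macrophage receptors Mrc1 and Msr1 fell from 2.62 to 0.336 FPKM and from 5.30 to 0.768 FPKM. Clec7a, Aim2 and Clec4e, the most abundant of the others, were listed at 64.3 against 120 FPKM, 40.5 against 21.4 FPKM and 21.0 against 46.0 FPKM without being called.

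Of 4 tested interleukin receptor genes whose products share the TIR domain with the Toll-like receptors, 1 rose and 0 fell. It was Il1r1, which rose from 0.681 to 4.21 FPKM, with a q-value of 0.00467 in the authors' deposited table. Il18rap was listed at 32.1 against 36.0 FPKM and Il1rap at 8.39 against 8.95 FPKM without being called.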
